A study of Mus musculus with 6 samples.

Results

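Transcripts of 7 cell surface proteins were followed across the stromal vascular fraction (SVF) of mouse adipose tissue, mouse epididymis and mouse testis. The genes were Upk1b, Muc16, Msln, Cd34, Cd248, Ly6a and Thy1, found by their symbols in the platform annotation. They had been chosen by their ratios in earlier results of these same arrays, together with their use as surface markers, so their values below are a description and carry no test. A probe was found for 6 of the 7 genes, with 1 probe each, among 18543 named genes in all. Ly6a was not analysed here. SVF is the mixture of non-adipocyte cells released from fat, testis carries germ cells with Sertoli and Leydig cells, and epididymis is the duct in which sperm mature.

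The labels do not distinguish RNA samples within a tissue, so each tissue was treated as 1 total RNA sample. Each pair of tissues was hybridised on 2 two-colour arrays with Cy3 and Cy5 exchanged, giving 6 arrays in 3 dye swaps. Strain, age, treatment, fat depot and the number of animals behind each RNA are not stated by the labels. Values are given as mean ± SD over the 2 arrays of a swap. This SD reflects the exchange of dyes and the repeat of the hybridisation, animals do not enter it, and no p-value between tissues is given. The size rule asked for a log2 ratio of at least 1 (2-fold) toward the same tissue on both arrays, and a gene that met it is termed called. Between SVF and testis 16.0% of all named genes were called toward SVF and 20.7% toward testis. Between SVF and epididymis 8.68% were called toward SVF and 10.2% toward epididymis. Between epididymis and testis 14.3% were called toward epididymis and 18.0% toward testis. Counts for lists of genes below are to be read beside these shares.

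Mesothelium is the flat epithelium that covers the abdominal organs and many fat depots. Upk1b, Muc16 and Msln are used to mark it. Upk1b encodes a tetraspanin first known from the plaques of the bladder lining, Muc16 encodes the membrane mucin detected as CA125, and Msln encodes mesothelin, a lipid-anchored protein that binds Muc16. Cd34, Cd248, Ly6a and Thy1 are used to sort mesenchymal progenitors from SVF. Cd34 is a sialomucin that selectins can bind, Cd248 (endosialin) is a lectin-domain protein of fibroblasts and pericytes, Ly6a (Sca-1) is a lipid-anchored antigen of mouse stem and progenitor cells, and Thy1 (CD90) is a lipid-anchored antigen. Other cells carry them too, as Cd34 marks endothelium and Thy1 marks T cells.

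The ratios were read as log2 with the Cy5 tissue on top, a direction that is likely rather than stated. With it, testis exceeded SVF for 13 of 14 markers of late spermatids, 14 of 14 epithelial and duct genes were higher in epididymis than in testis, and SVF exceeded each other tissue for 9 of 9 macrophage genes. Across named genes the 2 arrays of a swap correlated with Pearson's r of 0.88 for SVF and testis, 0.71 for SVF and epididymis, and 0.81 for epididymis and testis. On the arrays 11.5% of all probe values were identical to 8 decimals to the value of another probe on the same array, but none of the 36 values of the 6 surface genes was. Which spots exceeded background is not known here. In these RNAs of mixed cells, fewer cells of a type and less RNA per cell cannot be told apart.

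The genes did not share 1 pattern. Cd34, Cd248 and Msln were called higher in SVF than in both other tissues. Upk1b was high in epididymis and SVF and low in testis. Muc16 was lowest in epididymis. Thy1 was called in SVF over testis only, with the other comparisons below the size rule. The 6 measured genes fell into 5 combinations of calls over the 3 comparisons, with Cd34 and Cd248 sharing 1. That sharing rests on the call of Cd248 in epididymis over testis, which a fit over all 6 arrays placed below the size rule (0.73, SE 0.53).

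**Figure D1:**
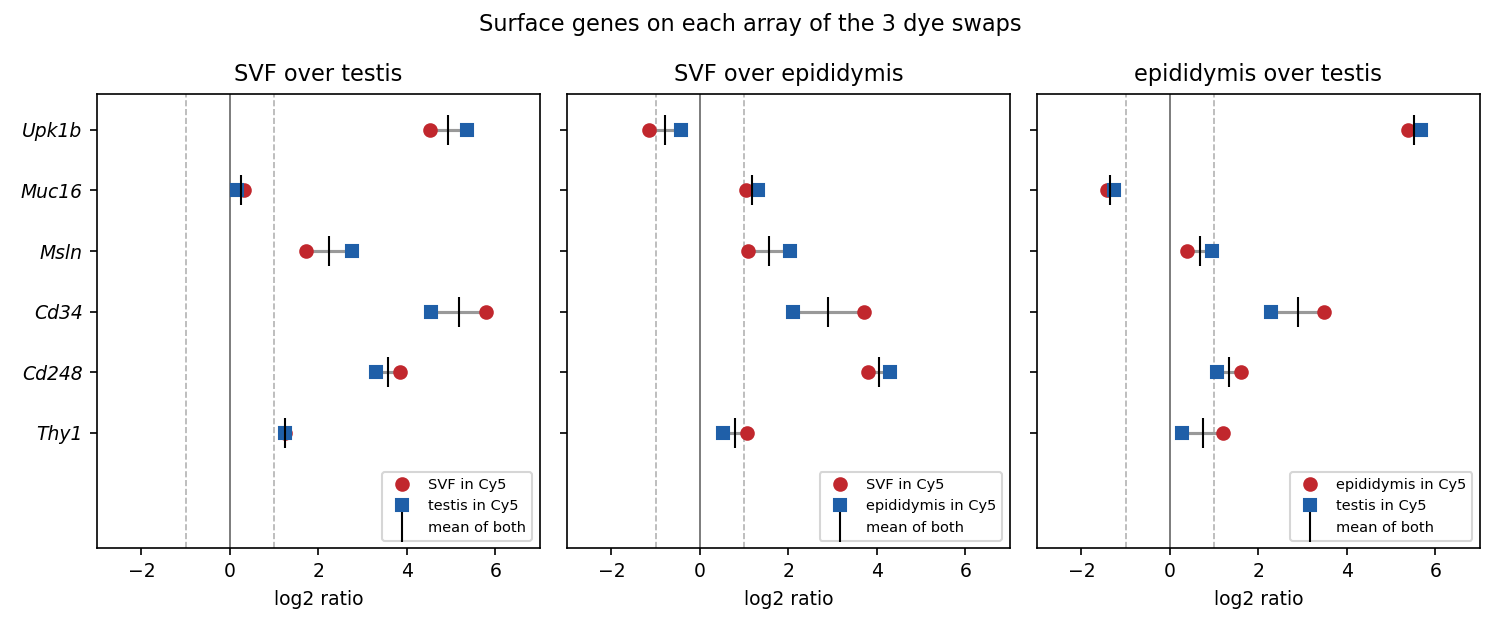
Log2 ratio (horizontal axis) of the 6 measured surface genes (rows) in the 3 comparisons (panels). Circles are the array with the first-named tissue in Cy5, squares the array with the dyes exchanged, short bars the mean, and dashed lines mark a log2 ratio of 1 in either direction. Both arrays lie on the same side of 0 for all 6 genes in all 3 panels, and Upk1b alone turns to the left side in SVF over epididymis.

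Upk1b had a log2 ratio of SVF over testis of 4.51 on the array with SVF in Cy5 and 5.36 on the array with testis in Cy5. The mean was 4.94 ± 0.60, a 30.6-fold higher level in SVF, and 93 of the 18543 genes had a larger ratio. For epididymis over testis the 2 arrays gave 5.37 with epididymis in Cy5 and 5.67 with testis in Cy5. Here the mean was 5.52 ± 0.21, 45.9-fold higher in epididymis, and 23 genes had a larger ratio. SVF and epididymis were much closer to each other than either was to testis. SVF over epididymis stood at -1.15 with SVF in Cy5 and at -0.42 with epididymis in Cy5, a mean of -0.79 ± 0.51 that did not meet the size rule. A least-squares estimate over all 6 arrays, with a dye term for each gene, placed SVF below epididymis by a log2 difference of -0.72 (SE 0.11, 3 residual degrees of freedom among hybridisations). By this estimate the levels ran from epididymis through SVF to testis.

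Markers of the duct epithelium, which epididymis holds, were set beside Upk1b. All 14 epithelial and duct markers were higher in epididymis than in testis, and 13 of 14 were higher in epididymis than in SVF, where the list median of SVF over epididymis was -3.89. Against testis, 2 of these markers were higher in SVF and 3 were higher in testis (median 0.48). Their part in the ratio of Upk1b was not tested.

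Among the other uroplakins, Upk3b, a mesothelial gene as well, went with SVF alone. Upk3b stood at 2.63 ± 0.28 in SVF over testis and 2.25 ± 0.05 in SVF over epididymis, against 0.46 ± 0.23 in epididymis over testis, which was not called. Upk1a was called in epididymis over testis alone (1.58 ± 0.60), and Upk2 and Upk3a were called in no comparison. Of 32 tetraspanins and uroplakins measured beside Upk1b, SVF over testis was called for 13, all toward SVF (median 0.87). The named examples are the leukocyte tetraspanin gene Cd53 at 5.03 ± 0.37, Cd63 at 2.97 ± 0.22, Cd9 at 2.76 ± 0.23 and Tspan32 at 2.67 ± 0.19. In epididymis over testis 14 of 32 were called higher in epididymis, from which Cd9 stood at 3.72 ± 0.33 and Tspan6 at 3.28 ± 0.41. In SVF over epididymis the family divided, with 5 higher in SVF and 6 in epididymis (median -0.05).

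Msln was higher in SVF than in both other tissues, with smaller ratios. In SVF over testis it gave 1.72 with SVF in Cy5 and 2.77 with testis in Cy5 (mean 2.24 ± 0.74, 4.73-fold). In SVF over epididymis the arrays gave 1.09 with SVF in Cy5 and 2.03 with epididymis in Cy5 (mean 1.56 ± 0.67, 2.95-fold). Epididymis over testis gave 0.39 with epididymis in Cy5 and 0.95 with testis in Cy5, and its mean of 0.67 ± 0.40 was not called. In all 3 swaps the ratio was larger on the array with the lower tissue in Cy5, with a fitted dye term of -0.43 against an SD of 0.40 over all named genes. Averaged over both dyes the 3 ratios closed, since epididymis over testis was 0.67 directly and 0.68 through SVF. The fitted order was SVF, epididymis, testis, with an SE of 0.086 for each difference.

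Of the 3 relatives of Msln measured, 2 were called higher in testis than in SVF and in epididymis. Mslnl, named for its likeness to mesothelin, stood at -3.52 ± 0.27 in SVF over testis and -3.35 ± 0.60 in epididymis over testis. Strc, which encodes the inner ear protein stereocilin, stood at -3.28 ± 0.11 and -2.66 ± 0.22 in the same comparisons. The remaining relative measured, Otoa, had ratios of -0.01 ± 0.41 and -0.01 ± 0.33 and was not called. None of the 3 was called between SVF and epididymis (median -0.31).

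Muc16 had small ratios and was the sole surface gene called lower in epididymis than in testis. Epididymis over testis was -1.43 with epididymis in Cy5 and -1.27 with testis in Cy5, a mean of -1.35 ± 0.11, or 2.55-fold higher in testis. SVF over epididymis gave 1.04 with SVF in Cy5 and 1.32 with epididymis in Cy5, a mean of 1.18 ± 0.20, or 2.27-fold higher in SVF. SVF and testis did not differ by the size rule, with 0.32 when SVF was in Cy5 and 0.16 when testis was (mean 0.24 ± 0.11). The fitted difference between SVF and testis was 0.10 with an SE of 0.13, within its own error. The same 3 calls were made for 122 genes, 0.658% of those named, the fewest for any combination found among the surface genes. The Muc16 probe was designed to a cDNA clone record, and which transcripts of this long gene it detects was not analysed here.

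The other mucins measured differed from Muc16. Of 9, none was called higher in SVF than in epididymis and 3 were higher in epididymis (median of SVF over epididymis -0.29). These 3 were Muc15 (-4.31 ± 0.93), Muc5b (-3.79 ± 1.39) and Muc20 (-2.01 ± 0.12). The same 3 were called higher in epididymis than in testis, Muc15 with 4.78 ± 1.23, Muc5b with 3.54 ± 0.97 and Muc20 with 2.80 ± 0.06 (list median 0.20). In SVF over testis Muc13 alone was called, at 1.27 ± 0.25 (list median 0.00).

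**Figure D2:**
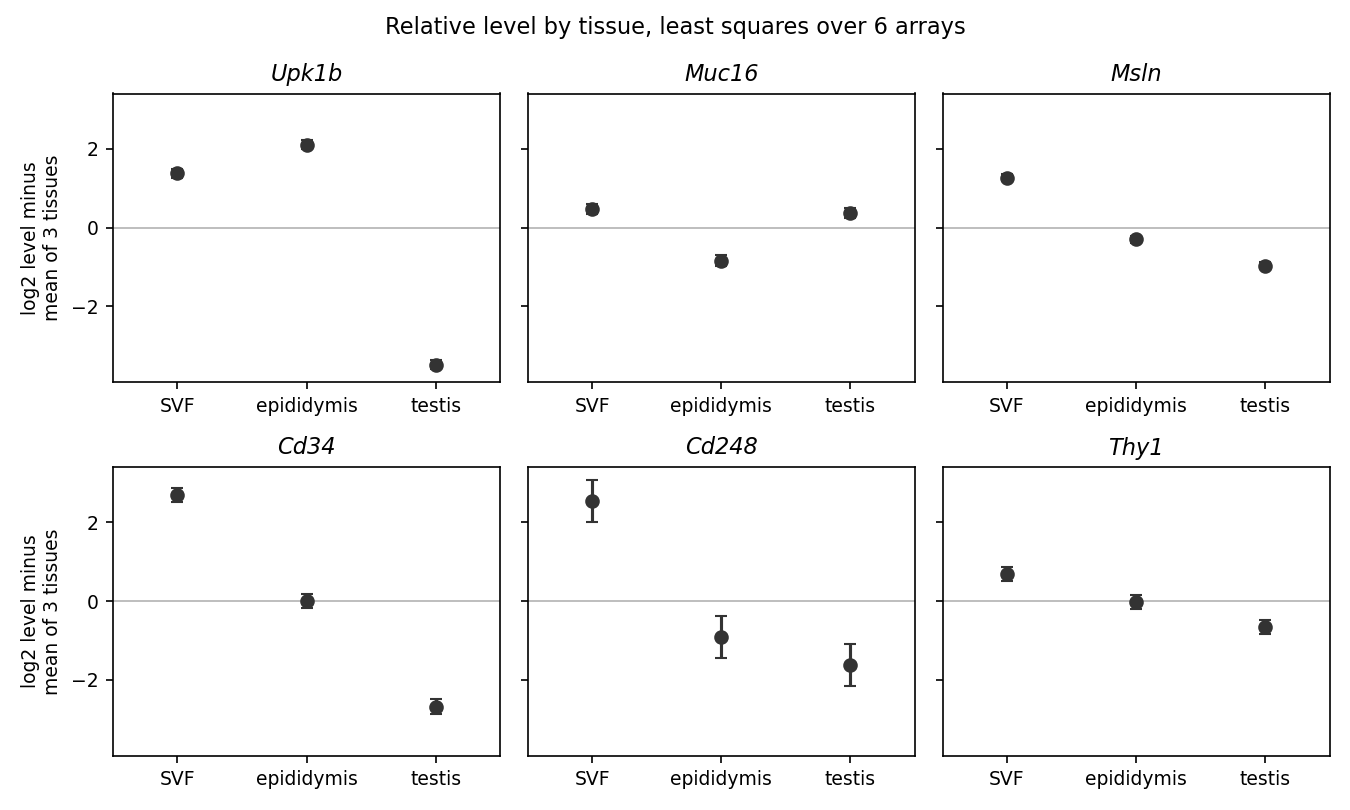
Relative log2 level (vertical axis, minus the mean of the 3 tissues) of each surface gene in SVF, epididymis and testis, from least squares over the 6 arrays. Bars are the SE of a difference between 2 tissues and cover hybridisation error. Cd34, Msln and Thy1 descend in the order SVF, epididymis, testis, Cd248 is highest in SVF with the order of the other tissues not resolved, Upk1b is highest in epididymis at 2.10, and Muc16 is lowest there at -0.84.

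Cd34 was called higher in SVF than in epididymis and higher in epididymis than in testis. In SVF over testis it gave 5.79 with SVF in Cy5 and 4.55 with testis in Cy5 (mean 5.17 ± 0.88, 36.0-fold), and 59 genes had a larger ratio. In SVF over epididymis it gave 3.70 with SVF in Cy5 and 2.10 with epididymis in Cy5 (mean 2.90 ± 1.13, 7.46-fold). In epididymis over testis it gave 3.49 with epididymis in Cy5 and 2.29 with testis in Cy5 (mean 2.89 ± 0.85, 7.42-fold). All 6 arrays exceeded a log2 ratio of 2, and epididymis lay midway between the other tissues on the fitted scale, with SVF at 2.69 and testis at -2.69 around the mean of the tissues. Contrary to Msln, Cd34 gave the larger ratio wherever the higher tissue was in Cy5, with a fitted dye term of 0.67.

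Promoter windows of 300 bases (RefSeq, GRCm38.p6, from 250 bases before an annotated start) were found for Cd34 and Muc16. Both are shown because no window was found for Upk1b, Msln, Cd248 or Thy1. Cd34 was higher in epididymis than in testis and Muc16 was lower. Whether the windows bear on these ratios was not tested. The Cd34 window is chr1:194938571-194938870 on the plus strand and the Muc16 window is chr9:18674554-18674853 on the minus strand. Capitals mark matches, on either strand and with no overlap between motifs, to 6 core motifs, namely the TATA box (TATAAA), the CCAAT box (CCAAT), the GC box (GGGCGG), the CACC box (CCACCC), the GATA core (AGATAA) and the ETS core (AGGAAG).
Cd34: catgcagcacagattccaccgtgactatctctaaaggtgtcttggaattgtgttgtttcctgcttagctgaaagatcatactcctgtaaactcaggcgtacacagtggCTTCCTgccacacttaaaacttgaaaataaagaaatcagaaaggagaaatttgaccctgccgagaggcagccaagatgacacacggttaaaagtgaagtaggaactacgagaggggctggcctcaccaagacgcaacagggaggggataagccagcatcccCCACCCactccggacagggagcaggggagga
Muc16: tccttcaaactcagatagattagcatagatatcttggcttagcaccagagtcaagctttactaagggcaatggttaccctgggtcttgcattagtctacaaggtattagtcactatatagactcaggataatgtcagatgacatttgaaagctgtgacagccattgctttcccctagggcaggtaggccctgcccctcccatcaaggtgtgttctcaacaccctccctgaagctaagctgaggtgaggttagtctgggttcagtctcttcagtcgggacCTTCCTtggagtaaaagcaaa
Each window held AGGAAG on the opposite strand once, at offset -142 from the start in Cd34 and 29 in Muc16, and 35.4% of all 32851 promoter windows held it. Cd34 also held CCACCC at offset 19, as did 31.5% of all windows. TATAAA (13.6% of windows), CCAAT (37.4%), GGGCGG (35.7%) and AGATAA (11.2%) were in neither. The GC content of the Cd34 window was 50%, with 7 CpG dinucleotides, and the Muc16 window was 46.7% with 1, against medians of 52.7% and 7 over all windows.

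Relatives of Cd34, selectins and another selectin ligand gene, Selplg, were read together, and 3 of them were also higher in SVF. Of 5 measured, the selectin ligand gene Selplg stood at 5.19 ± 0.60 in SVF over testis and 4.43 ± 0.72 in SVF over epididymis. P-selectin, Selp, stood at 3.36 ± 0.36 and 3.10 ± 0.14, and podocalyxin, Podxl, at 3.75 ± 0.18 and 1.51 ± 0.15, in the same order. The Cd34 relative Podxl2 (-0.64 ± 0.35 and -0.93 ± 0.30) and Sele (0.44 ± 0.64 and 1.98 ± 1.60) were called in neither. The list medians were 3.36 and 1.98. In epididymis over testis Selplg alone of the 5 was called (1.46 ± 0.43), and the arrays disagreed for Podxl (-0.47 ± 3.86). Endothelial markers were higher in SVF in part. SVF over testis was called toward SVF for 9 of 13 (median 2.08, range -0.25 to 4.89), and 8 of 13 were higher in SVF than in epididymis (median 1.81). Cdh5, Kdr, Vwf and Erg were called in neither comparison, with Cdh5 at 0.49 ± 0.43 and 0.53 ± 0.48. Epididymis over testis was called for 2 of 13 (median 0.46), namely Emcn at 1.90 ± 0.79 and Egfl7 at 1.37 ± 0.44, where Cd34 itself stood at 2.89. Macrophage markers were called toward SVF for 9 of 9 in both SVF comparisons. In epididymis over testis 5 of 9 macrophage markers were called toward epididymis (median 1.29). The part of either cell type in the Cd34 ratio was not tested.

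Cd248 was high in SVF, and its ratios did not close. SVF over testis was 3.85 with SVF in Cy5 and 3.29 with testis in Cy5 (mean 3.57 ± 0.39, 11.9-fold). SVF over epididymis was 3.79 with SVF in Cy5 and 4.30 with epididymis in Cy5 (mean 4.05 ± 0.36, 16.5-fold), and 95 genes had a larger ratio. Epididymis over testis met the size rule, with 1.60 when epididymis was in Cy5 and 1.07 when testis was (mean 1.34 ± 0.37, 2.52-fold). Through SVF, however, epididymis over testis came to -0.48, opposite in sign to the direct value. The sum around the loop was -1.81, and 92.4% of named genes had a sum of at most 1 in size. The least-squares ratio of epididymis over testis was 0.73 with an SE of 0.53, below the size rule. SVF was the highest tissue on all 4 of its arrays, and the order of epididymis and testis was not resolved.

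Lectin-domain relatives and matrix partners of Cd248, listed together with Mmrn1, were mostly higher in SVF. SVF over testis was called for 5 of 7 (median 3.25), with thrombomodulin, Thbd, at 5.23 ± 0.24, fibronectin, Fn1, at 4.68 ± 0.10, Mmrn2 at 3.32 ± 0.03 and Lgals3bp at 3.25 ± 0.06. In SVF over epididymis 5 were called (median 2.32), with Fn1 at 4.95 ± 0.21 and Thbd at 4.22 ± 0.08. Epididymis over testis had 3 higher in epididymis and Mmrn1 higher in testis, at -1.57 ± 0.12. Pericyte and smooth muscle markers exceeded testis in SVF for 6 of 9 genes (median 2.32). Between SVF and epididymis 2 were higher in SVF and 2 in epididymis (median -0.07). Kcnj8 (2.06 ± 0.17) and Notch3 (1.27 ± 0.32) were called toward SVF, and the contractile genes Myh11 (-1.77 ± 0.54) and Tagln (-1.43 ± 0.29) toward epididymis. The other 5 were not called, among them Rgs5 (0.00 ± 0.07) and Cspg4 (-0.07 ± 0.04). Rgs5 and Cspg4 were called in no comparison. Epididymis over testis was called for 5 of these 9 toward epididymis (median 2.00). The part of mural cells in the Cd248 ratios was not tested.

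Thy1 had small ratios that were called in 1 comparison. SVF over testis was 1.24 with SVF in Cy5 and 1.25 with testis in Cy5, a mean of 1.25 ± 0.0025 and 2.37-fold. SVF over epididymis was 1.07 with SVF in Cy5 and 0.51 with epididymis in Cy5 (mean 0.79 ± 0.39, 1.73-fold), and epididymis over testis was 1.20 with epididymis in Cy5 and 0.28 with testis in Cy5 (mean 0.74 ± 0.66, 1.67-fold). Both fell short of the rule on 1 array. The fitted differences were 0.70 for SVF over epididymis and 0.64 for epididymis over testis, each with an SE of 0.17.

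Markers of other cells that carry Thy1 were read beside it. T cell markers were called in SVF over testis for 6 of 13 genes (median 1.19, range -0.54 to 4.58) and higher in SVF than in epididymis for 5 of 13 (median 0.73). Examples in SVF over testis are the CD3 subunit gene Cd3g at 4.58 ± 1.28, the costimulatory receptor gene Cd28 at 2.20 ± 0.02, Lat at 1.54 ± 0.19 and Cd2 at 1.44 ± 0.38. Epididymis over testis was called for 3 of 13 (median 0.28). Spermatogonia markers were called higher in SVF for 2 of 15 genes and higher in testis for 2 of 15 (median of SVF over testis 0.09). Those higher in SVF were Bcl6b (2.91 ± 0.50) and Itga6 (1.17 ± 0.21), and those higher in testis were Id4 (-1.94 ± 0.24) and Uchl1 (-1.64 ± 0.24). Neither list's part in the Thy1 ratio was tested. Among 9 reported Thy1 partners, SVF over testis was called for 6 (median 1.33), led by the integrin genes Itgax (3.96 ± 0.86) and Itgb2 (2.80 ± 0.21) and by Adgre5 (2.77 ± 0.10). Against epididymis 4 of 9 partners were called in SVF (median 0.83), and in epididymis over testis 2 of 9 (median 0.45).

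Ly6a itself has no value here, and its family did not move as 1 group. Of 29 Ly6 and uPAR domain genes measured, SVF over testis was called for 3 toward SVF and for 8 toward testis (median -0.22). All named genes also divided here, with 16.0% called toward SVF and 20.7% toward testis. The 3 were Gpihbp1, which anchors lipoprotein lipase on capillaries (3.05 ± 0.49), Ly6e (2.65 ± 0.08) and Lynx1 (2.32 ± 0.54). Toward testis stood Ly6k (-5.43 ± 0.09), the germ cell gene Tex101 (-5.09 ± 0.0010), Lypd4 (-4.52 ± 0.40) and Lypd9 (-3.06 ± 1.36). Between SVF and epididymis 2 were higher in SVF and 8 in epididymis (median -0.47), the largest being Ly6g5c (-4.63 ± 0.74). Epididymis over testis had 6 higher in epididymis and 8 in testis (median -0.07).

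**Figure D3:**
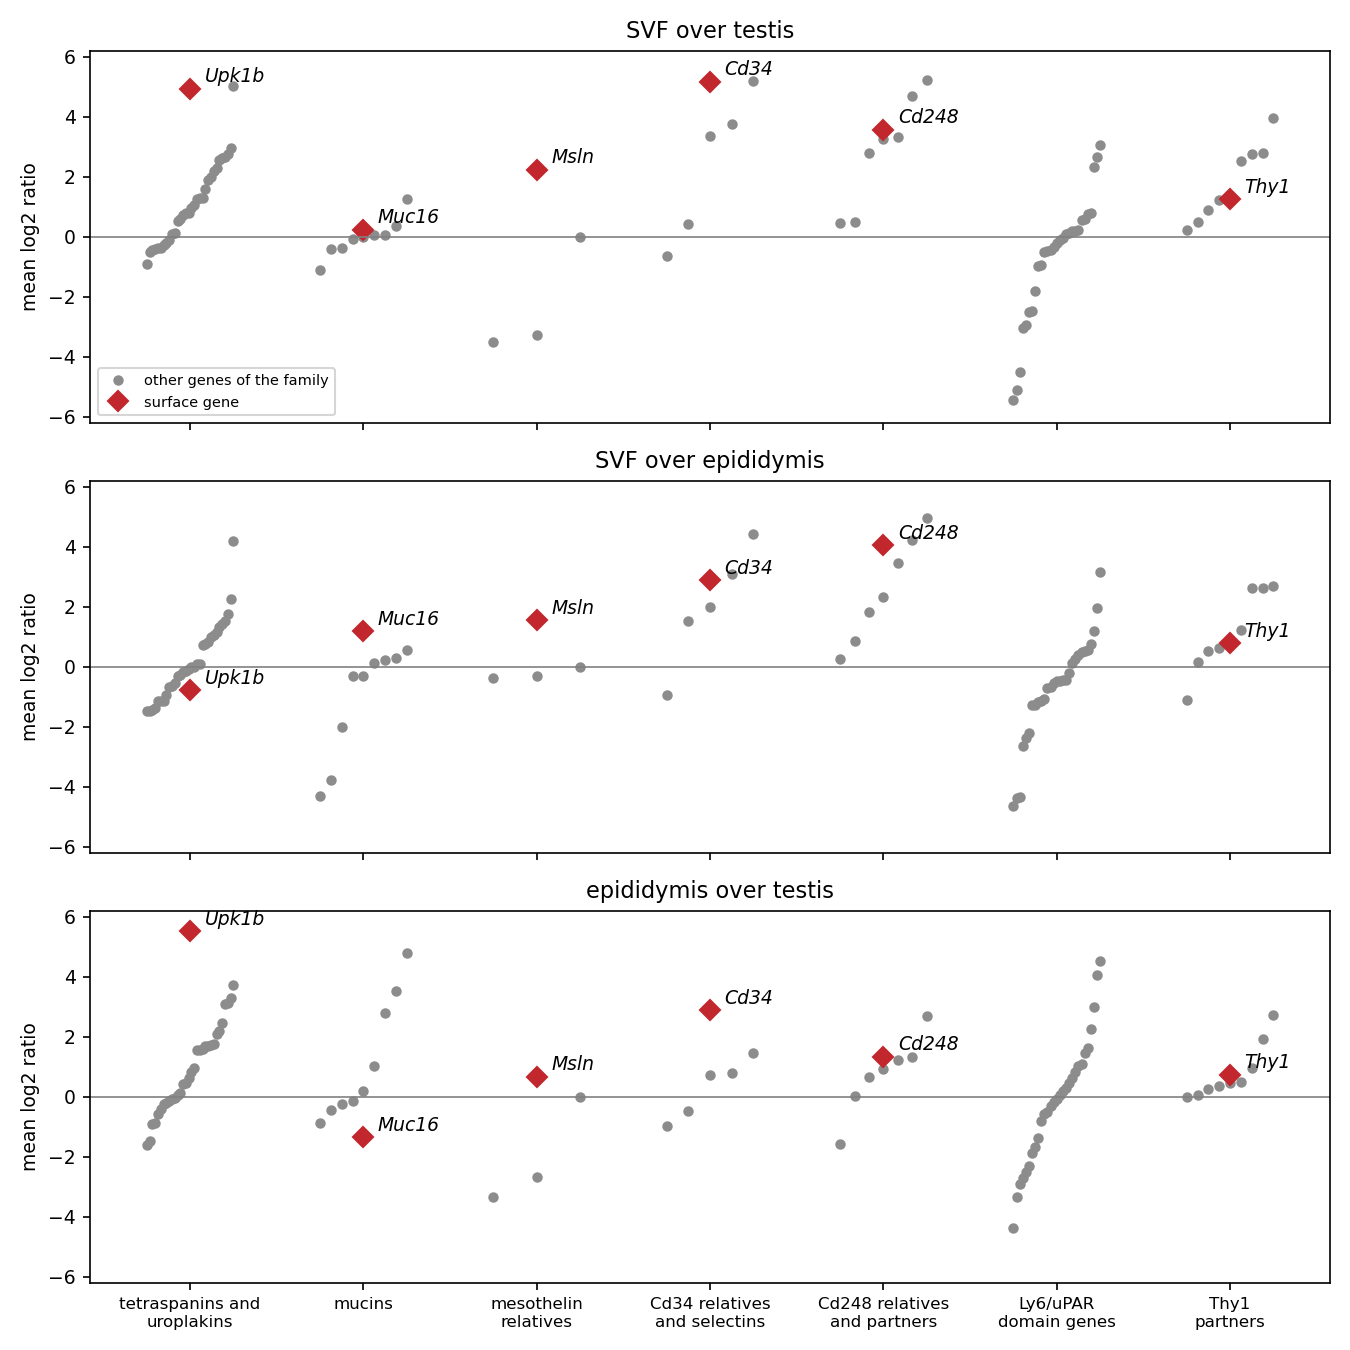
Mean log2 ratio of 2 arrays (vertical axis) for the measured genes of 7 families or partner groups (grey circles, sorted within each group) and the surface gene that belongs to each (red diamonds), in the 3 comparisons. Upk1b (5.52) lies above its family in epididymis over testis, Msln lies above its 3 relatives in each comparison, and Muc16 lies above the other mucins in SVF over epididymis and below them in epididymis over testis. The Ly6 group carries no diamond because Ly6a has no value.

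Counted together, SVF over testis was called for 5 of the 6 measured surface genes, all toward SVF. Of all named genes 16.0% were higher in SVF in this comparison and 20.7% were higher in testis. SVF over epididymis was called for 4 of 6, all toward SVF, where 8.68% of all genes were higher in SVF and 10.2% in epididymis. In epididymis over testis 3 of 6 were higher in epididymis (14.3% of all genes) and 1 of 6 higher in testis (18.0% of all genes). The rule of SVF over both other tissues on all 4 arrays was met by 3 of 6, and by 6.95% of all genes. Nothing is read from these shares, since the same ratios helped to choose the genes. The medians over the 6 genes were 2.91 in SVF over testis, 1.37 in SVF over epididymis and 1.04 in epididymis over testis, beside medians of 0.00, -0.07 and 0.00 over all named genes.

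Other genes of mesothelium were called in several combinations. SVF over testis was called for 8 of 17 measured, all toward SVF (median 0.92), led by Rspo1 (3.79 ± 0.92), Gpm6a (3.51 ± 0.07), podoplanin, Pdpn (3.21 ± 0.18) and Prg4 (2.64 ± 0.10). In SVF over epididymis 8 were higher in SVF and 3 lower (median 1.26). Those lower were the keratin genes Krt8 (-3.38 ± 0.25), Krt18 (-3.31 ± 0.69) and Krt7 (-2.00 ± 0.23), which duct epithelium also expresses. Higher in SVF than in both were 6 of 17, namely Upk3b, Gpm6a, Pdpn, Nkain4, Rspo1 and Cldn15. The retinoic acid enzyme gene Aldh1a2 stood at -2.45 ± 0.04 in epididymis over testis and 1.26 ± 0.16 in SVF over epididymis, the same signs as Muc16, and at -0.999 ± 0.201 in SVF over testis, where Muc16 was positive. In epididymis over testis 7 of 17 were higher in epididymis and Aldh1a2 alone was higher in testis (median 0.61). The transcription factor gene Wt1, a defining marker of mesothelium that Sertoli cells also express, was called nowhere, with -0.19 ± 0.89 in SVF over testis and 1.61 ± 1.54 in SVF over epididymis.

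Other progenitor and fibroblast genes exceeded testis in SVF for 21 of 27, and Cd55 was lower (-1.30 ± 0.12, list median 3.22). The fibroblast protease gene Fap stood at 6.61 ± 0.66, Anxa3 at 5.79 ± 0.05, decorin, Dcn, at 5.03 ± 0.06 and the receptor gene Pdgfrb at 5.02 ± 0.19. Fewer were higher in SVF than in epididymis, 14 of 27, and 3 were lower (median 1.45). Fap led again with 5.27 ± 0.78, followed by Smpd3 (4.90 ± 0.03), Mfap5 (3.91 ± 0.79) and Vcam1 (3.79 ± 0.42), while Clec11a (-1.53 ± 0.22) and Cd9 (-1.43 ± 0.29) were lower. Epididymis over testis was called toward epididymis for 13 of 27 and toward testis for 2 (median 1.29), with Pdgfra at 3.78 ± 0.38 and Cd55 at -3.69 ± 0.02. All 3 comparisons were called in the same direction as for Cd34 by Pdgfrb, Anxa3, Dcn, Col15a1 and F3. Pdgfra and Dpp4, widely used beside Cd34 to sort progenitors, had the same calls as Upk1b. Their ratios of SVF over epididymis, 0.91 ± 0.53 and -0.25 ± 0.66, were not called. The ratio of Pdgfra was positive on both arrays, however, where that of Upk1b was negative on both. Adipocyte markers were called in SVF over testis for 6 of 9 toward SVF and 2 toward testis (median 2.12), and in SVF over epididymis for 2 of 9 (median 0.42). Upk3b and Cd9 each stand in 2 of the gene lists.

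**Figure D4:**
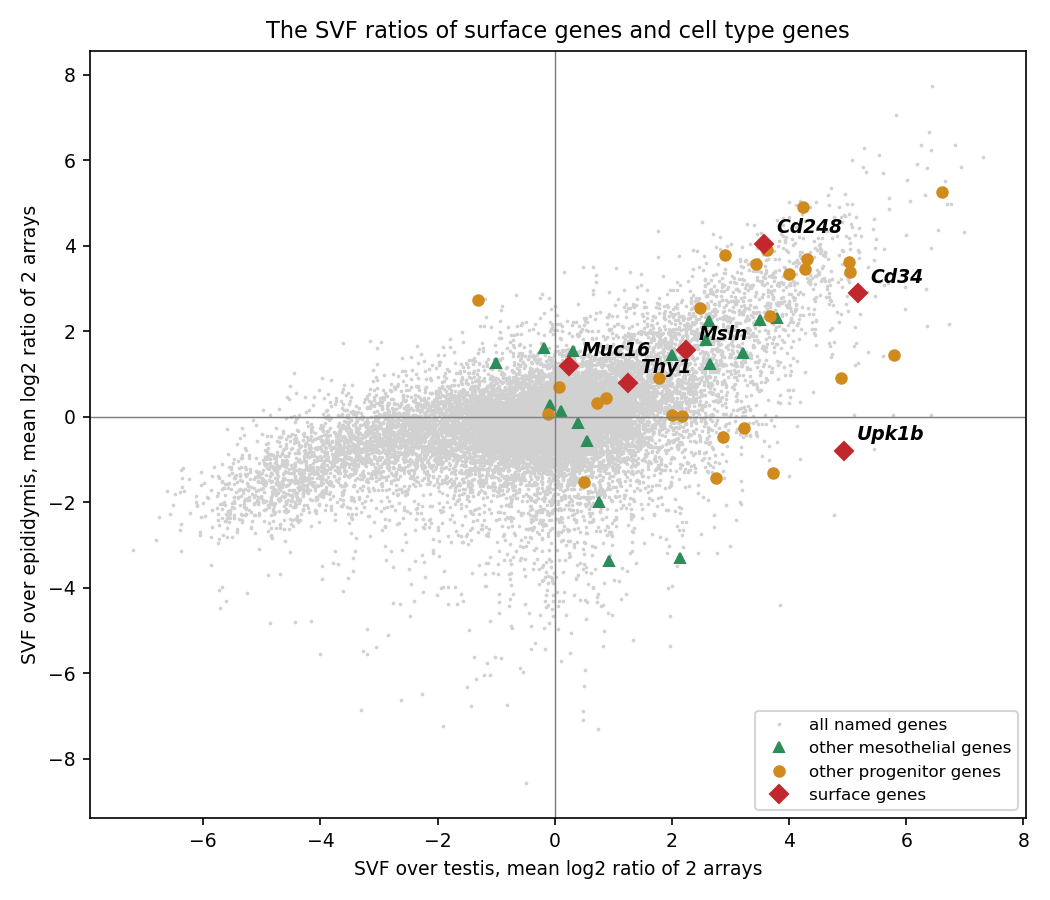
Mean log2 ratio of SVF over testis (horizontal axis) against SVF over epididymis (vertical axis) for all named genes (grey), other mesothelial genes (triangles), other progenitor genes (circles) and the 6 surface genes (diamonds). Cd34, Cd248 and Msln lie to the upper right, and Upk1b lies far to the right and below 0. Both axes use the same SVF RNA, so a relation between them is not a result.

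Nearest genes were found by Euclidean distance over the 6 log2 ratios, among all named genes. The gene closest to Cd34 was Fabp4, a fatty acid binding protein gene of fat and endothelium, at a distance of 0.74, with 5.14 in SVF over testis, 3.01 in SVF over epididymis and 3.31 in epididymis over testis. Trib1 (0.79) and Pmp22 (0.96) followed. For Cd248 the nearest were Pnliprp2 (0.76), Cd84 (0.87) and Ifi204 (1.01), and for Msln they were Adam12 (0.28), Ccl17 (0.66) and Mbnl1 (0.70). Thy1 lay closest to Layn (0.20), Smad6 (0.42) and Rilp (0.43), and Muc16 to Saa2 (0.43), Rc3h2 (0.50) and Slc12a5 (0.51). Upk1b had no gene as close as these, its nearest being Ism1 (1.60), Sat1 (1.86) and Ptgs2 (2.41). Among the surface genes themselves the closest were Msln and Thy1 (2.44), followed by Muc16 and Thy1 (3.46) and by Cd34 and Cd248 (3.91), and the farthest were Upk1b and Muc16 (12.1). The distance is not scaled, so genes with small ratios lie close together even where their directions differ. Muc16 and Thy1 went opposite ways in epididymis over testis, with means of -1.35 and 0.74.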

How the data were processed

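The authors deposited a log ratio for each of 25344 probes on each of 6 arrays. How they corrected and normalized the signals, the logarithm's base and the ratio's direction are not stated by labels or headers. The deposited ratios were taken as log2 of Cy5 over Cy3, per the labels' dyes and title order, and turned to SVF over testis, SVF over epididymis and epididymis over testis. Dye-exchanged arrays correlated negatively as deposited (r of -0.86, -0.64 and -0.77). Probe names came from the platform annotation, updated by gene ID to GRCm38.p6. Of 21112 annotated probes 20922 were named, 160 with non-mouse symbols and 30 with several genes were not, and 4232 probes had no annotation. Probes of a gene were averaged. Precision is limited by having 2 arrays per comparison. No test between tissues was made. Genes from 17 lists are named where they met the size rule, up to the 4 largest in size and 2 against the list median, and a few others are named where a sentence needs them. For each surface gene the 3 nearest genes are named. The genes and lists were chosen with earlier results of these data known. The loop fit was checked on simulated data that held no dye effect and no difference between epididymis and testis. The size rule was run on the same data with no pass criterion, and the dye term was not checked. Python 3.11.15, pandas 2.3.3 and numpy 2.4.6 were used.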

Additional observations from a re-analysis of the deposited data

How the results depend on the processing

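Of the 18 single ratios (6 genes in 3 comparisons), none changed sign under any of 9 alternatives, but most of these could not change one. The 2-fold and 4-fold rules and the choice of probe leave the ratios as they are, and natural logarithms only rescale them. Both arrays of each swap lay on the same side of 0, so leaving 1 out could not turn a sign. Only median centring and the loop estimate could have done so. At 4-fold on both arrays the counts of called genes were 3 in SVF over testis, 2 in SVF over epididymis and 2 in epididymis over testis, in place of 5, 4 and 4, while the shares of all named genes called in either direction were 19.7%, 6.34% and 14.6%, in place of 36.7%, 18.9% and 32.3%. The least-squares loop estimate, the same with and without a dye term, moved the median over the 6 genes to 3.21 in SVF over testis and 0.70 in epididymis over testis, and the count in epididymis over testis to 3, as Cd248 was no longer called, while 39.8% of all genes were called. Read as natural logarithms, the medians were 4.19, 1.98 and 1.5. Leaving out 1 array of the swap of epididymis and testis gave medians from 1.01 to 1.40, and with the array with epididymis in Cy5 alone Thy1 was called too, for 5 genes, while 44.6% of all genes were called. Without the array with epididymis in Cy5, SVF over epididymis called 6 genes, with Upk1b higher in epididymis and Thy1 higher in SVF, and the single arrays called 31.7% and 31.8% of all genes. Median centring and 2-fold on the mean alone left the counts of called surface genes at 5, 4 and 4. Taking the probe with the largest ratio could not change these counts, since each surface gene has 1 probe. All genes were measured on all 6 arrays, so that alternative changed nothing. No spot intensity was analysed here, so signal over background is unknown. No paired analysis was possible because each tissue was treated as 1 RNA sample.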
